A study of Mus musculus with 4 samples.

Results

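The miR-297, miR-466, miR-467 and miR-669 families are mouse miRNAs made largely of short CA, UA and GU repeats. All array entries for mouse miRNAs whose name starts with one of these 4 numbers, with no further digit directly behind it, were taken as members, with every arm and star strand (the less used arm of a precursor, marked with an asterisk). This gave 39 of the 611 mouse miRNAs on the array: 3 of miR-297, 14 of miR-466, 10 of miR-467 and 12 of miR-669. They were followed in liver RNA of wild-type (WT) and *Clock* mutant mice, which carry the *Clock*Δ19 allele of the core circadian transcription factor CLOCK, at ZT2 and at ZT14, which are 2 h and 14 h after lights on. All mice were males of 6 to 8 weeks, caged singly under 12 h light and 12 h dark for 2 weeks before they were killed. Each of the 4 conditions was 1 array, hybridized with RNA pooled from 3 mice, so no condition had a replicate and no ratio of 2 arrays can be tested.

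A miRNA guides a silencing complex to messenger RNAs that pair with its seed, the bases near its 5′ end, so miRNAs with different seeds are predicted to have different targets even where the rest of their sequence is alike. Most genes of these families lie in a dense array inside an intron of *Sfmbt2*, a Polycomb gene that is imprinted and best known for its expression in placenta and early embryo. Copies in that array arose by repeated duplication, so some members differ from each other by few bases, and a probe for one member may also capture another. The members are therefore not independent measurements of a condition.

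The RefSeq table for GRCm38.p6 held the mature sequence of 5 of the 39 members, all but miR-466i under the array's name. miR-466i was matched by hand to miR-466i-3p, the only match of that kind made. The arrays name no genome build, and the coordinates are RefSeq's. These sequences are shown because they make the repeat content visible. They belong to the 5 members whose only gene lies outside *Sfmbt2*, so they do not stand for the other members. The seed, bases 2 to 8 from the 5′ end, is in capitals.
miR-466i (miR-466i-3p in the table), chr13:17747552-17747573, plus strand: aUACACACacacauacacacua
miR-467f, chr11:69635419-69635439, minus strand: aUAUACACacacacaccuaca
miR-467g, chr5:34732872-34732892, minus strand: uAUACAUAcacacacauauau
miR-466j, chr10:60960802-60960824, plus strand: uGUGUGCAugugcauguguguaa
miR-466k, chr3:85467396-85467418, plus strand: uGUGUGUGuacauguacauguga

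No 2 of these 5 shared a seed. The first 3 held the letters ACACACA, with unbroken alternations of C and A that ran for 11, 12 and 9 bases. The other pair held UGUGUGU, with alternations of G and U of 7 bases in miR-466j and 9 in miR-466k. UGUGUGU stood in 4 of the 163 array miRNAs with a sequence in the table (2.45%) and ACACACA in 3 of them (1.84%), and among all 1679 mature mouse sequences of the table the shares were 0.655% and 0.298%. ACACACA was chosen as a motif after the values had been seen. The 3 CA-rich members were called detected on at least 2 arrays, and the 2 GU-rich members on no array. This split of 5 members was not tested. The GU-rich miR-1187 and miR-574-5p, outside the families, were detected on all 4 arrays.

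By gene place, the annotation held 82 genes of the 4 families, 72 of them inside the span of *Sfmbt2* on chromosome 2. All copies of 31 members lay there, 5 members (miR-466i, miR-466j, miR-466k, miR-467f and miR-467g) had their only gene elsewhere, and 3 members had copies in both places. The members called detected on at least 1 array were 11 of the 31, 3 of the 5 and 1 of the 3.

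The arrays were read in 1 colour and shared 1 slide and 1 scan time. Values are background-subtracted intensities, averaged over the spots of a probe and the probes of a miRNA, and scaled to a common 75th percentile, taken over the 123 mouse miRNAs found on every array. Before scaling that percentile was 339.9 to 537, lowest on the WT array at ZT14. The hepatocyte markers miR-122, miR-192 and miR-194 were detected on all 4 arrays, with miR-122 at a scaled signal of 41440 to 53212. In bulk liver RNA, fewer cells of a type and less RNA per cell cannot be told apart.

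Detected members were fewest on the *Clock* mutant array at ZT14. Feature Extraction, the scanner's software, called 15 of the 39 members detected in WT liver at ZT2, 10 in mutant liver at ZT2, 9 in WT liver at ZT14 and 3 in mutant liver at ZT14. As shares these were 38.5%, 25.6%, 23.1% and 7.69%. Of the 572 other mouse miRNAs, 178, 151, 129 and 139 were detected on the same arrays in turn, or 31.1%, 26.4%, 22.6% and 24.3%. The share of members was thus near or above that of the others on the first 3 arrays and below it on the mutant array at ZT14.

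Of the families, miR-297 was detected on no array, miR-466 gave 5 detected members, miR-467 gave 3 and miR-669 gave 7. miR-466f-3p, miR-466i and miR-467f were detected on all 4 arrays. miR-466c-5p, miR-466g, miR-669a, miR-669c and miR-669f were detected on all but the mutant array at ZT14. miR-467g and miR-669h-3p were detected on both ZT2 arrays, and miR-669d on both WT arrays. The last 4, miR-466h, miR-467a*, miR-669b and miR-669e, were detected in WT at ZT2 alone. The remaining 24 members were detected on no array.

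**Figure D1:**
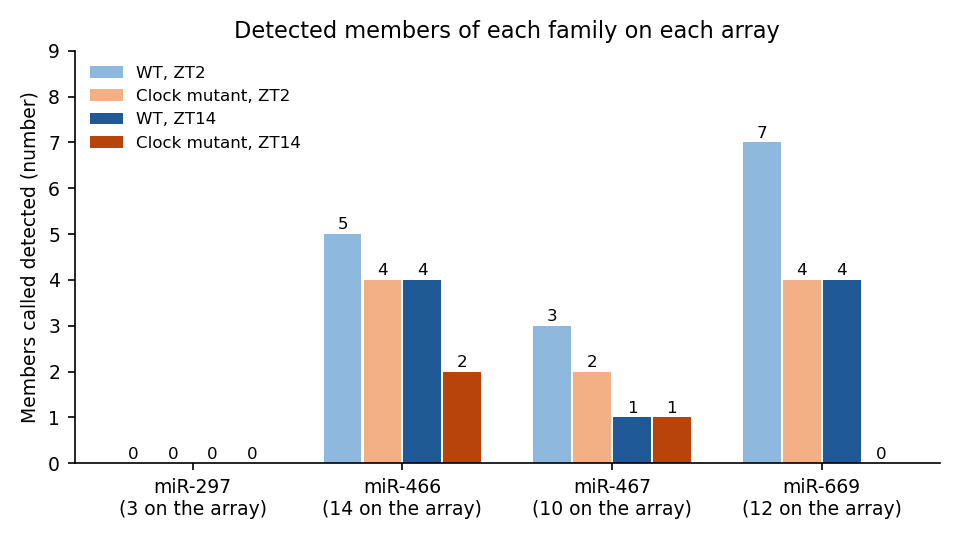
Number of members of each family that were called detected on each array (bars, 1 array per bar, no replicates). The miR-669 family went from 7 detected members in WT at ZT2 to 0 in the mutant at ZT14, and miR-297 had none on any array.

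Both arms of 7 precursors were on the array. In 3 of them a single arm was detected (miR-466f-3p, miR-467a* and miR-669h-3p), in 4 neither was, and in none were both. The partners miR-466f-5p, miR-467a and miR-669h-5p stayed undetected on all 4 arrays.

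At ZT14 the 3 members detected on both arrays were at least 2-fold lower in the *Clock* mutant than in WT, as were 8 of all 123 mouse miRNAs detected on both. A further 6 members were detected in WT alone and had bounds past 2-fold. Those 6 entered through the array where they were high and could only come out lower, so the resulting 9 of 9 members, beside 13.4% of all 157 mouse miRNAs detected on either array, is a description and not support. No miRNA of either kind (0%) was at least 2-fold higher on this scaling, while with scaling by the spike-in control probes 17 miRNAs were lower and 32 higher, none of the higher ones a member. The 3 members detected on both arrays are given first.

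miR-467f had scaled signals of 133 (WT) and 118 (mutant) at ZT2 and of 122 and 22.9 at ZT14. Its log2 ratio of mutant to WT at ZT14 was -2.41, with an SD of 0.22 from the spots of the 2 arrays. The first 3 values lay close together and the mutant array at ZT14 stood apart.
miR-466i read 112 (WT) and 94.8 (mutant) at ZT2, and at ZT14 it read 90.1 and 12.8, a log2 ratio of -2.81 (spot SD 0.36). miR-466f-3p read 100.4 (WT) and 82.0 (mutant) at ZT2, and at ZT14 it read 73.7 and 6.61, a log2 ratio of -3.48 (spot SD 0.67). The low array was the same one for all 3. The last value of miR-466f-3p was under that array's negative control mean, 8.69 on the same scale, so its ratio is the least firm of the 3, while miR-466i and miR-467f stayed above that mean. These 3 ratios were the lowest of the 123 mouse miRNAs detected on both ZT14 arrays, whose median was -0.03 with an SD of 0.64. With normexp background correction the ratios of miR-466f-3p, miR-466i and miR-467f were -1.15, -1.15 and -1.19, and with scaling by the spike-in control probes they were -2.64, -1.97 and -1.58, beside a median of all 123 miRNAs of 0.81.

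The other 6 members were detected in WT at ZT14 and not in the mutant, so each has a bound only: the WT signal against the higher of the mutant's own signal and the lowest signal of a detected miRNA on that array. That lowest signal was 1.78 scaled units, under the negative control mean, so the bound against the negative control mean is given as well where it is smaller. Neither level is a limit of detection, since miR-669c was not called detected on that array at 12.3 scaled units. Where the mutant's own signal is the higher, the bound is a plain ratio to an undetected signal. The words "at least" thus refer to these levels and not to a proven minimum.
miR-466g read 66.1 (WT) and 55.0 (mutant) at ZT2, and at ZT14 it read 46.5 and -0.77. It was at least 26.1-fold lower at ZT14 against the lowest detected signal and at least 5.35-fold lower against the negative controls. Of the 6, it was the one whose mutant signal fell below 0.
miR-669c read 51.0 (WT) and 48.7 (mutant) at ZT2 and 60.9 and 12.3 at ZT14, at least 4.94-fold lower. miR-669f read 34.1 and 32.1 at ZT2 and 34.8 and 5.43 at ZT14, at least 6.41-fold lower, or 4.01-fold against the negative controls. On this scaling their WT signals at ZT2 and ZT14 were within 1.20-fold and 1.02-fold of each other, and the mutant array at ZT14 was the low one.
miR-466c-5p read 29.7 and 24.7 at ZT2 and 31.2 and 7.44 at ZT14, at least 4.20-fold lower, or 3.59-fold against the negative controls. miR-669a read 24.6 and 19.5 at ZT2 and 25.4 and 7.51 at ZT14, at least 3.38-fold lower, or 2.92-fold against the negative controls. miR-669d read 19.8 and 14.9 at ZT2 and 21.4 and 5.27 at ZT14, at least 4.06-fold lower, or 2.46-fold against the negative controls. With the negative control mean as the floor, all 9 members stayed at least 2-fold lower.

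**Figure D2:**
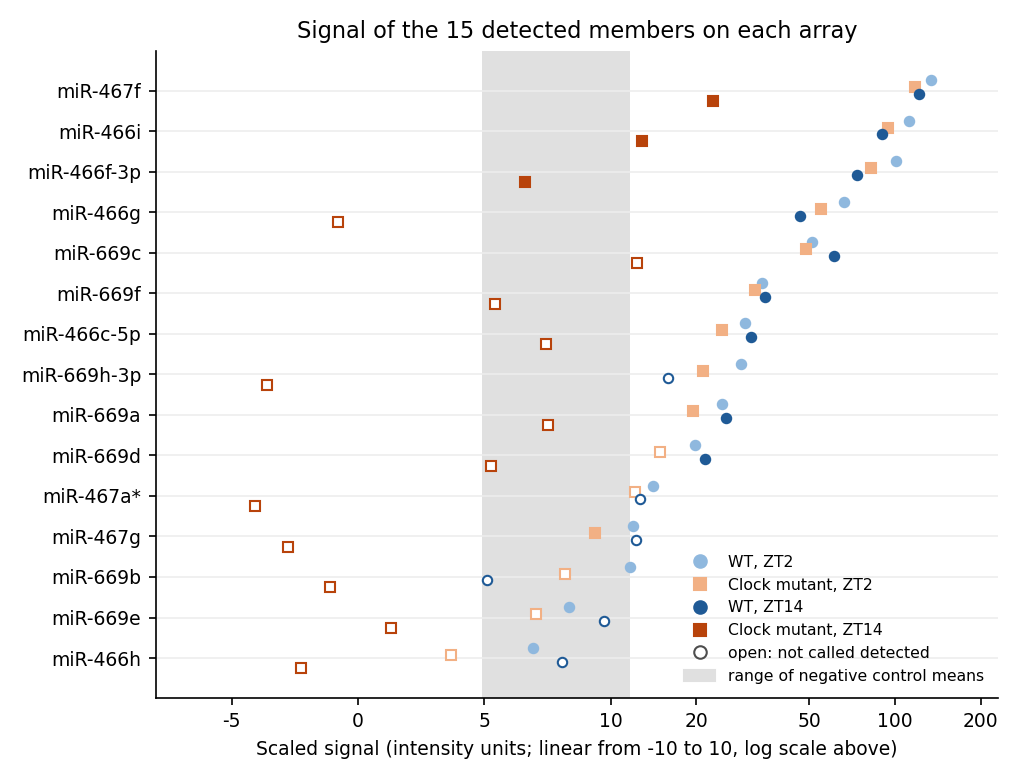
Scaled signal of the 15 members detected on at least 1 array (horizontal axis, intensity units, linear to 10 and logarithmic above), 1 mark per array, filled where called detected and open where not, with the range of the arrays' negative control means in grey. All 15 members had their lowest value on the mutant array at ZT14, and 3 of those 15 marks are filled.

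Split by gene place, the members detected on both ZT14 arrays were miR-466i and miR-467f, with genes outside *Sfmbt2*, and miR-466f-3p, with copies in both places. Their mutant signals at ZT14 lay past 2-fold below those of WT. The 6 tested members with genes only inside *Sfmbt2* each had a bound past 2-fold. All 6 were detected in WT alone at ZT14 and could only come out lower. Whether the decrease held for that place was therefore not tested. Summed over its members, with values below 0 set to 0, the scaled signal of the miR-466 family was 323 (WT) and 263 (mutant) at ZT2 and 256 and 28.3 at ZT14. The miR-467 family summed to 177 and 154 at ZT2 and to 169 and 31.4 at ZT14. The miR-669 family summed to 179 and 151 at ZT2 and to 176 and 38.3 at ZT14. The mutant sum was 81.4% to 87.1% of the WT sum at ZT2 in these 3 families, and 11.1% (miR-466), 18.6% (miR-467) and 21.7% (miR-669) at ZT14. These sums include members not called detected. In the mutant at ZT14, 2 miR-466 members, 1 miR-467 member and 0 miR-669 members were detected, so the miR-669 sum there is undetected signal. The order of the families at ZT14 is therefore not a measured difference. The miR-297 sum stayed between 2.77 and 4.53 on all arrays, below the negative control mean of each.

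At ZT2 none of the 10 members detected on both arrays differed by 2-fold between mutant and WT. With bounds counted, 0 of 15 members tested were called at least 2-fold lower and 0 higher, against 8.25% lower and 0% higher among all 194 mouse miRNAs tested. The 10 members detected on both ZT2 arrays had log2 ratios of -0.45 (miR-669h-3p, 28.8 in WT and 21.1 in the mutant) to -0.06 (miR-669c), with a median of -0.27, beside -0.07 for all 160 miRNAs detected on both. All 10 were below 0, and 6 of them by more than their spot SD. That side of 0 depended on the scaling: the median of the 10 was 0.04 with the 75th percentile of the full set of 611 mouse miRNAs, 0.01 after quantile normalization and 0.56 in the deposited log2 table, where the medians of all miRNAs were 0.24, 0.05 and 0.74.
The other 5 tested members were detected in WT alone at ZT2, with bounds of 1.15-fold (miR-467a*) to 1.89-fold (miR-466h) lower in the mutant. These bounds cannot show whether a difference was below 2-fold. Their WT signals were low to begin with: miR-669d read 19.8, miR-467a* 14.03, miR-669b 11.7, miR-669e 8.35 and miR-466h 6.94.

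**Figure D3:**
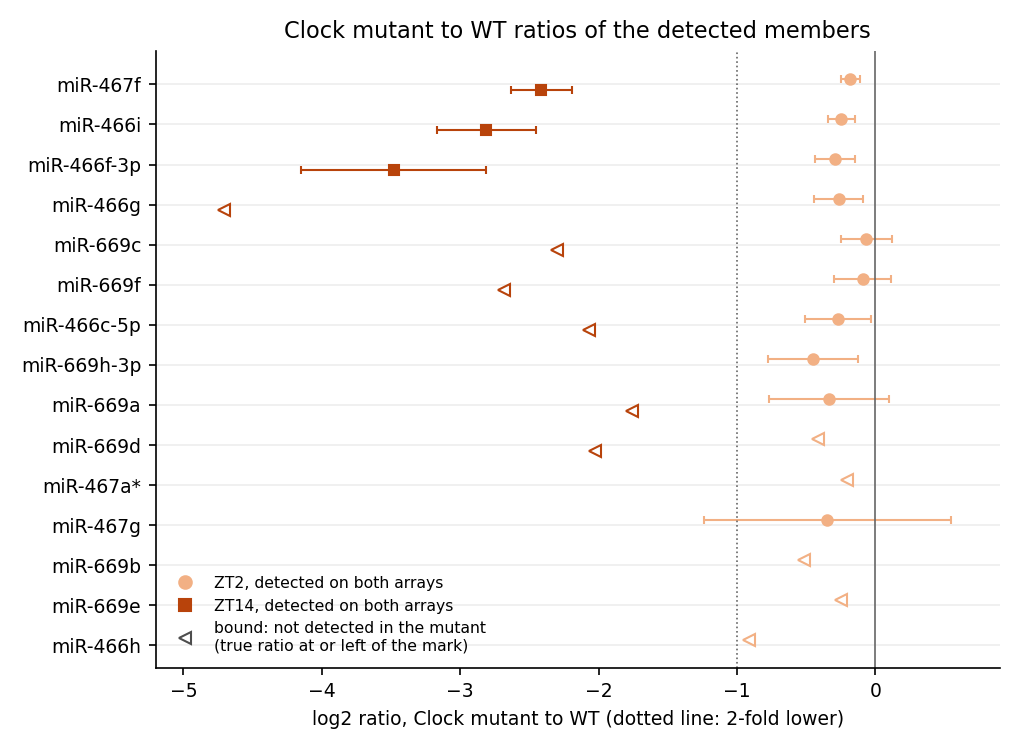
log2 ratio of *Clock* mutant to WT at ZT2 (light) and ZT14 (dark) for the 15 detected members. Bars are SDs from the spots of the 2 arrays, which do not cover differences between mice. Open triangles are bounds for members not detected in the mutant, against the higher of the mutant's own signal and the lowest detected signal, which is not a limit of detection. The ZT2 values lie between -0.92 and -0.06 and the ZT14 values between -4.70 and -1.76.

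Set against each other, as values without a test, the genotype ratios of the time points lay far apart for the 3 members detected on all 4 arrays. None of these 3 was of miR-297 or miR-669. The log2 ratio at ZT14 minus that at ZT2 was -3.19 for miR-466f-3p, -2.57 for miR-466i and -2.23 for miR-467f, the 3 lowest of the 123 miRNAs detected on all 4 arrays. Over all 123 the median was -0.06 and the SD 0.62. The spot SDs of the 3 values were 0.68, 0.37 and 0.23, and the value of miR-466f-3p rests on a mutant signal at ZT14 under the negative control mean. Next in order, and no members, came miR-1187 at -1.93, miR-574-5p at -1.87 and miR-706 at -1.55.

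**Figure D4:**
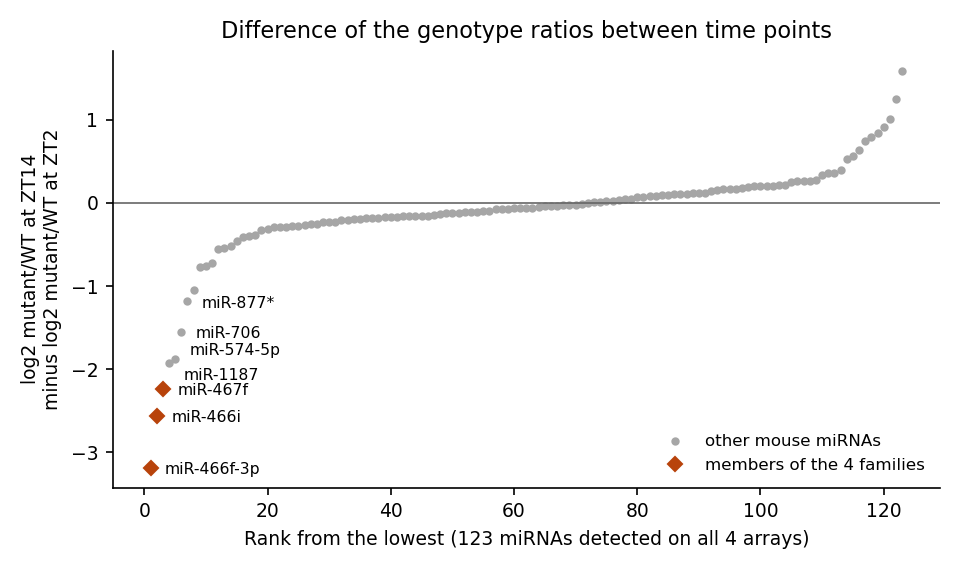
Difference of the log2 genotype ratios between ZT14 and ZT2 (vertical axis) for the 123 mouse miRNAs detected on all 4 arrays, ranked from the lowest (horizontal axis), 1 point per miRNA. The 3 members, at -3.19 to -2.23, hold the 3 lowest ranks, followed by miR-1187 and miR-574-5p.

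From ZT2 to ZT14 in WT, most members stayed within 2-fold. Of 15 members tested, 1 was at least 2-fold lower, against 6.7% of all 194 mouse miRNAs, and 0 were higher, against 1.03%. That member was miR-669b, at 11.7 at ZT2 and 5.11 at ZT14, with a bound of 2.30-fold lower that came to 1.0 against the negative controls. The 9 members detected on both WT arrays had log2 ratios of ZT14 to ZT2 of -0.51 (miR-466g) to 0.26 (miR-669c), with a median of 0.03 beside -0.12 for all 137 miRNAs. Of the other 5, miR-467a* and miR-669h-3p had bounds of 1.11-fold and 1.81-fold lower, and miR-466h, miR-467g and miR-669e had no bound past 1, since their undetected signals at ZT14 were as high as those at ZT2.
Within this range the 3 members seen on all 4 arrays and miR-466g lay on the low side: miR-466f-3p was at -0.45 (spot SD 0.21), miR-466i at -0.32 (0.12), miR-467f at -0.13 (0.09) and miR-466g at -0.51 (0.17). The 4 miR-669 members on both arrays lay at 0.03 to 0.26. Without scaling between arrays 4 members were at least 2-fold lower, with a median of all 137 miRNAs at -0.78. With scaling by the spike-in control probes 5 were, with that median at -0.86.

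From ZT2 to ZT14 in the *Clock* mutant, the 3 members detected on both arrays were at least 2-fold lower, as were 9 of all 140 mouse miRNAs detected on both. With members detected at ZT2 alone the count was 10 of 10, beside 13.5% of all 163 mouse miRNAs, and 0 were higher, beside 0%. This comparison shares the mutant array at ZT14 with the genotype comparison at that time, so these are not independent. miR-466f-3p had a log2 ratio of -3.63 (spot SD 0.65), miR-466i of -2.88 (0.35) and miR-467f of -2.37 (0.21), again the 3 lowest of the 140, with miR-466f-3p at ZT14 under the negative control mean.
The other 7 were detected at ZT2 alone, so they could only come out lower. Their bounds ran from 2.60-fold (miR-669a) to 30.8-fold (miR-466g) lower. Against the negative controls the bound of miR-466g was 6.33-fold, that of miR-669f 3.69-fold in place of 5.90-fold, and that of miR-669a 2.24-fold. miR-669h-3p went from 21.1 at ZT2 to -3.58 at ZT14 and was at least 11.8-fold lower, or 2.43-fold against the negative controls. miR-467g went from 9.37 to -2.77, with a bound of 5.26-fold that fell to 1.08-fold against the negative controls, and it was the single member of the 10 that did not stay past 2-fold with that floor.

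In limma with genotype and time point as terms and 1 residual degree of freedom, the fit with more than 1 array per group, no member was called. The 3 members detected on all arrays had mean log2 differences of mutant to WT over both time points of -1.89 (SE 0.82) for miR-466f-3p, -1.53 (0.66) for miR-466i and -1.30 (0.58) for miR-467f, each with limma's adjusted p of 0.422. For ZT14 against ZT2 over both genotypes they were -2.04 (0.82), -1.60 (0.66) and -1.25 (0.58), each with an adjusted p of 0.525. Over all 123 miRNAs the genotype term called 0 and the time term 0, with 10 and 12 at an unadjusted p under 0.05, none of them members.
Those means rest on 1 array. With 3 arrays left the other term has to be dropped and 1 group is a single array, so the following are values only. Without the mutant array at ZT14 the genotype differences were -0.07, -0.09 and -0.11 for miR-466f-3p, miR-466i and miR-467f, and the time differences -0.30, -0.20 and -0.04. Without the mutant array at ZT2, where the mutant at ZT14 stands alone against both WT arrays, the genotype differences were -3.70, -2.97 and -2.48.

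The 15 detected members were read by 37 probes, and every one of the 37 was lower in the mutant than in WT at ZT14, against 61.2% of the 448 probes of all mouse miRNAs detected on any array. At ZT2 the mutant was lower at 34 of the 37 (66.7% of all probes). All 15 members were called detected in WT at ZT2, and 5 of them were not in the mutant at ZT2. The probes were thus taken in part through the array on which they were high, which favours a lower mutant value. At ZT14, miR-466h, miR-467a*, miR-467g, miR-669b, miR-669e and miR-669h-3p were detected on neither array, so their probes compare undetected signals. The negative control mean at ZT14 was 11.7 scaled units in WT and 8.69 in the mutant, and its part in the count was not tested. The count was made on the main scaling only, and the sign of the members' median ratio at ZT2 turned with the scaling, as given above. From ZT2 to ZT14, 22 of the 37 were lower in WT (72.3% of all) and 36 in the mutant (70.8% of all).
Probes at or below the negative control mean numbered 3, 4 and 9 of 37 on the WT array at ZT2, the mutant array at ZT2 and the WT array at ZT14, and 30 of 37 on the mutant array at ZT14. All probes of the 3 members detected on every array were lower in the mutant at ZT14. Of the 4 probes of miR-466f-3p, the brightest went from 160 in WT to 23.2 in the mutant at ZT14 (log2 ratio -2.78), the next from 71.1 to 7.23, and the other two from 45.6 to -0.62 and from 18.5 to -3.36. Averaging the 2 dark probes into the miRNA thus gave a larger ratio than the brightest probe alone. The 2 probes of miR-467f went from 153 to 32.5 and from 90.2 to 13.2, log2 ratios of -2.24 and -2.77. The 2 probes of miR-466i went from 123 to 19.8 and from 56.9 to 5.91, log2 ratios of -2.64 and -3.27.

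**Figure D5:**
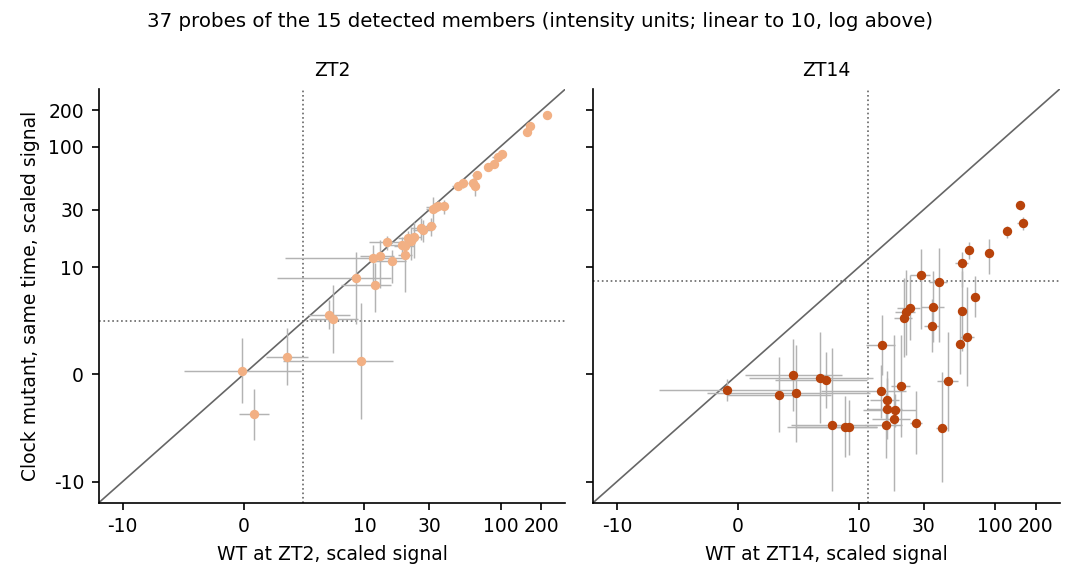
Scaled signal of each of the 37 probes in the mutant (vertical) against WT (horizontal) at ZT2 (left) and ZT14 (right), with spot SDs as bars, equality as the solid line and the arrays' negative control means as dotted lines (axes linear to 10, logarithmic above). At ZT2 34 of the 37 probes lie under the line of equality, most of them close to it, and at ZT14 all 37 lie under it.

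The miRNAs outside the families whose levels over the 4 arrays lay nearest to the mean of miR-466f-3p, miR-466i and miR-467f were miR-706, miR-574-5p, miR-1187, miR-877* and miR-212. Their distances, on centred log2 values, were 0.60, 0.88, 0.95, 1.48 and 1.997, beside a median of 2.52 for the 120 other miRNAs detected on all arrays. Of these, miR-1187 and miR-574-5p are also the only other array miRNAs with a sequence in the table that holds UGUGUGU. They are printed to set beside the GU-rich members above, seed in capitals.
miR-1187, chr5:82798964-82798986, minus strand: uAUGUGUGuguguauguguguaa
miR-574-5p, chr5:64970328-64970350, plus strand: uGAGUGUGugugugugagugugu

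miR-1187 read 119.6 (WT) and 107 (mutant) at ZT2, and at ZT14 it read 127 and 29.8. miR-574-5p read 276 and 246 at ZT2 and 265 and 64.4 at ZT14. Their log2 ratios of mutant to WT were -0.16 and -0.17 at ZT2 and -2.09 and -2.04 at ZT14, so both had the pattern of the members. Their alternating runs of G and U were of 11 and 13 bases, and a part of the repeat in the pattern was not tested. miR-466j and miR-466k, which hold the same 7 letters, were on no array above detection, with scaled signals of -0.19 to 5.12 and of -4.74 to -0.55. miR-706 read 28.2 and 16.0 at ZT2 and 18.2 and 3.53 at ZT14.

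Of the marker lists of other cells, that of red blood cells was lowest on the mutant array at ZT14. The muscle list (4 miRNAs) had 3 members detected in WT at ZT2 and 0 on each other array, with a summed scaled signal of 149 there and of 2.10 to 5.30 elsewhere. Of 3 red blood cell miRNAs, 2 or 3 were detected on each array, with a sum of 1226 in the mutant at ZT14 and of 1417 to 2844 on the other arrays. The leukocyte list (3 miRNAs) summed to 573 in WT at ZT2 and to 302 to 375 elsewhere, and the epithelial list (5 miRNAs) to 114 in WT at ZT2 and to 49.4 to 74.8 elsewhere, with 2 to 4 detected. The hepatocyte sum at ZT14 was 45981 (WT) and 51662 (mutant). Before scaling, the negative control mean was 9.72 units in the mutant and 8.32 in WT at ZT14, and 5.24 and 5.48 at ZT2. After scaling it was 8.69 in the mutant and 11.7 in WT at ZT14, and 4.99 and 4.89 at ZT2. The part of other cells, and of these background levels, in the members' values was not tested.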

How the data were processed

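The authors hybridized liver RNA, pooled from 3 mice for each of 4 conditions, to Agilent mouse miRNA arrays and deposited, per array, Feature Extraction 10.7.1.1 output: spot intensity values after background subtraction, flags and detection calls. The labels describe labelling by linear amplification. A table of log2 values, also deposited, was used only as an alternative. The study's methods name the Agi4×44PreProcess package, and state no normalization between arrays.

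Spots flagged as outliers were left out (3.72% to 5.64% of member spots), no spot was saturated, and intensities were averaged over spots and probes and divided by their array's 75th percentile, taken over 123 miRNAs found on every array. A change of 2-fold was called, as in the study's methods. The members, lists and tests were chosen with earlier results of these data known. Members detected on at least 1 array were named, with values on every array for those detected on all or called at 2-fold; other miRNAs were named as the 5 nearest patterns, markers, or holders of UGUGUGU. limma 3.58.1 in R 4.3.3 was fitted with Benjamini-Hochberg adjustment over 123 miRNAs and tested on simulated data. Python 3.11.15 ran the other steps, with pandas 2.3.3, numpy 2.4.6 and matplotlib 3.10.9. Precision is limited by the number of arrays, and spot SDs cover neither mice nor arrays. Alternatives covered scaling, background, probe summary, detection, floor and threshold; the sum over detected probes, subtraction of the negative control mean and scaling by 4 spike-in probes were added after seeing the data.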

Additional observations from a re-analysis of the deposited data

Results flagged for a closer look

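The members miR-669c, miR-669f, miR-466c-5p and miR-669a had log2 changes from ZT2 to ZT14 of opposite sign in the 2 genotypes, just above 0 in WT and below 0 in the *Clock* mutant, and each difference was not tested. The log2 change in the mutant minus that in WT was -2.24 for miR-669c, from 0.26 in WT and -1.98 in the mutant. It was -2.59 for miR-669f (0.03 and -2.56), -1.80 for miR-466c-5p (0.07 and -1.73) and -1.42 for miR-669a (0.04 and -1.38). All 4 mutant values are bounds for members detected in the mutant at ZT2 alone, and such a bound can only be below 0. The opposite sign thus depended on the 4 WT values alone. Of these, only that of miR-669c exceeded its spot SD of 0.18. The sign in WT turned with the scaling: without scaling between arrays the WT changes were -0.40 (miR-669c), -0.63 (miR-669f), -0.59 (miR-466c-5p) and -0.61 (miR-669a).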

How the results depend on the processing

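No paired analysis was possible because the labels carry no replicate number and every group holds 1 array. Low signal over background limited most values: 30 of 37 probes were at or below the negative control mean in the mutant at ZT14, and with detection taken from spots well above background 6 members were detected in the mutant at ZT2 and 0 in the mutant at ZT14. The decrease of miR-466f-3p, miR-466i and miR-467f in the mutant at ZT14 kept its direction under each alternative except the scanner's summed signal per miRNA. That signal turned them to 3.53, 3.69 and 3.28 against WT and to 3.95, 3.75 and 3.46 against ZT2. Thus 3 members were higher in each comparison, and 6 were lower in the mutant from ZT2 to ZT14. The other members had bounds, which could only come out lower and so could not turn. With detection from spots well above background this held for miR-466f-3p, miR-466i and miR-467f too. The scanner's sums of these 3 include the preceding miRNA, as the other observations show. Members at least 2-fold lower in mutant against WT at ZT14 were 3 with normexp background correction, 5 with detection from spots well above background and 3 when detected on both arrays. From ZT2 to ZT14 in the mutant these counts were 2, 5 and 3. Scaling by the spike-in probes left 8 of 9 at ZT14, where miR-669a was at -0.92, and the brightest probe alone left 7 of 9. Scaling moved the whole array: at ZT14 the median log2 ratio of all miRNAs was 0.63 without scaling, 0.48 with the 75th percentile of the full mouse set and 0.81 with spike-ins, with 18, 18 and 17 miRNAs lower and 16, 11 and 32 higher against 21 and 0, while the members' medians were -2.15, -2.30 and -1.97. At ZT2, members at least 2-fold lower were 1 without scaling, 5 with the summed signal, 1 in the deposited log2 table, 1 with outlier spots kept, 1 at a threshold of 1.5-fold, 2 with the sum over detected probes and 2 after subtraction of the negative control mean. From ZT2 to ZT14 in WT they were 4 without scaling, 6 with the summed signal, 2 at 1.5-fold, 5 after subtraction of the negative control mean, 5 with spike-ins, and 0 with the 75th percentile of the full mouse set, the median of miRNAs found on every array, normexp, the brightest probe, outlier spots kept, spots well above background, the negative control floor, miRNAs detected on both arrays or a threshold of 3-fold. The median difference of the genotype ratios between time points was -1.82 without scaling, -1.01 with normexp and -2.15 with the brightest probe, against -2.57. In limma, members called were 3 in the genotype term with normexp and 3 in the time term without scaling, and 0 to 3 in either term with 1 array left out. Those fits had 1 term, and the calls, 3 without the mutant array at ZT2 for genotype and 3 without the WT array at ZT14 for time, set the mutant array at ZT14 alone against 2 others and assume that it varies like them, so they bear on that array and not on a group. The cause of these shifts was not tested. The deposited table was not run for time, since its offsets from the scanner's summed log2 signal were 4.18, 3.27, -3.32 and -3.32 on the 4 arrays.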

Other observations

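The scanner files' summed signal per miRNA exceeded the sum over its detected probes (total signal above 3 times its error) for 47 miRNAs in WT at ZT2, 43 in the mutant at ZT2, 28 in WT at ZT14 and 42 in the mutant at ZT14. Of these, 46, 43, 28 and 40 had an undetected probe. The excess equalled, within 0.05 units, the summed signal of the preceding detected miRNA in name order for 46, 43, 28 and 40. In the mutant at ZT14 the 3 detected members formed such a chain. miR-466f-3p had a summed signal of 1911 from detected probes worth 9.23, and the excess of 1902 was the sum of miR-451, an abundant red blood cell miRNA. miR-466i then had 1927 from probes worth 15.7, and miR-467f 1953 from probes worth 25.9. On the other arrays the excess was smaller: in WT at ZT14 miR-466f-3p had 100.2 units from probes worth 69.0, with an excess of 31.2 equal to the sum of miR-466c-5p, and in WT at ZT2 5 members carried one, of 30.2 (miR-669e) to 203 (miR-467g).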
